A study of Mus musculus with 60 samples.

Results

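The genes of the HVEM, BTLA and lymphotoxin axis were followed in spleen leukocytes of young NOD mice and of 2 control strains, NON and C57BL/6 (C57). The axis held 7 genes, and its probe sets were found by gene symbol or alias in the annotation of the 2 arrays used: 11 of the 45037 probe sets analysed carried a member's name. One further probe set was added because the study calls it Tnfrsf14. The annotation used here does not list it under any gene, so its identity could not be checked, and it is called the study-named Tnfrsf14 probe set here. The axis was chosen by the low signal of that probe set in NOD mice, and its strain pattern is therefore given as a description with no test.

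RNA came from 6 groups of 5 female mice: NOD, NON and C57 at 4 weeks of age, and NOD, NON and C57 at 2 weeks of age. The cells of all 30 mice were untreated and uncultured before extraction. NOD mice develop autoimmune diabetes spontaneously, NON is a closely related strain that resists it, and C57 is more distantly related; leukocytes first gather around the islets of NOD mice at about the older of these ages. Levels are MAS 5.0 signals from oligonucleotide arrays, scaled to the same average on every array, in arbitrary units. In the tests, a probe set's signal was compared only with its own signal in other mice. The summed signals of cell markers add different probe sets, so the brightest markers weigh most in them. A probe set was tested when its signal reached 50 in at least 5 of the 30 mice, which 9 of the 11 annotated probe sets and the study-named one did. Differences are on the scale of log2(signal + 10), and a probe set was called at an adjusted p under 0.05 (limma, Benjamini-Hochberg over all 38293 probe sets tested).

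HVEM, the product of Tnfrsf14, is a receptor of the TNF receptor family on lymphocytes and myeloid cells. It binds TNF family ligands, among them LIGHT (Tnfsf14), and it also binds BTLA and CD160, members of the immunoglobulin superfamily. Engagement of BTLA restrains B and T cells, whereas signals through HVEM itself promote survival and activation through TRAF adaptors. Lymphotoxin-beta (Ltb) anchors lymphotoxin-alpha (Lta) to the cell surface, and the complex acts on the lymphotoxin-beta receptor (Ltbr) of stromal and myeloid cells, which maintains the architecture of the spleen.

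The promoters of Btla and Ltb are shown because Btla separated C57 from the other strains and Ltb was lowest in NON mice. Promoter windows of 300 bases (250 before and 50 after the start of the gene; RefSeq, GRCm38.p6) were found for 7 of 7 member genes, 8 windows in all. The capitals mark GAGGAAGT, a PU.1-type Ets box, in the Btla window (chr16:45224087-45224386, plus strand), and GGAAAGTCC, the reverse complement of the kB core GGACTTTCC, in the Ltb window (chr17:35194257-35194556, plus strand).
Btla: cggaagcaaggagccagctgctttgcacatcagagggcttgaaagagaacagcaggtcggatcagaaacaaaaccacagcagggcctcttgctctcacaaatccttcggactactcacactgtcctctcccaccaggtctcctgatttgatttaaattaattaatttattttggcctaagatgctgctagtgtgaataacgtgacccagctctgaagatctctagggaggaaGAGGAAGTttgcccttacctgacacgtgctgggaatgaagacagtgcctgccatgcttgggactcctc
Ltb: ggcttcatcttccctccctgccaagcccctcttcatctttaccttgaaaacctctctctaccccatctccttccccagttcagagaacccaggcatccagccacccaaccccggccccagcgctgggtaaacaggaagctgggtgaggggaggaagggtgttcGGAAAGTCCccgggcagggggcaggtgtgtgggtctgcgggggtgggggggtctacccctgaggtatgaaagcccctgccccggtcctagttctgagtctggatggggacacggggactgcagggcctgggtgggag
The Ets box began 18 bases before the start of Btla and the kB core 87 bases before the start of Ltb. Searched on both strands, GAGGAAGT occurred in 3.2% of 32851 promoter windows and GGACTTTCC in 0.344%. The 2 motifs do not overlap each other, and neither was found in the other 6 member windows. Both motifs were chosen after the sequences had been read, and a match describes these letters only.

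The leukocyte suspensions were not fractionated, so each signal is an average over cell types, and fewer cells of a type cannot be told apart from less RNA per cell. Among the B, T, NK, myeloid, dendritic, erythroid and stromal cell markers with a probe set, only the stromal marker Pdgfrb fell short of the signal minimum. The T cell markers were lowest in NON mice: the summed signal of 6 of them was 5080 to 6820 in NOD, 3520 to 4300 in NON and 6000 to 8750 in C57 mice at 4 weeks, and 2760 to 5700 in NOD, 776 to 2260 in NON and 3350 to 7360 in C57 mice at 2 weeks. Of these 6 markers, 4 were called for a strain difference at 4 weeks (Cd3d, Cd3g, Cd8a and Cd8b1) and 2 at 2 weeks (Cd8a and Cd8b1). NOD mouse 3 of 4 weeks stood apart, with a median correlation of 0.739 with the other mice of its group, against 0.824 to 0.876 elsewhere. The Gapdh 3′ to 5′ signal ratio, a measure of RNA integrity, ran between 0.744 and 4, with the highest value in NON mouse 2 of 2 weeks. Over both ages it was 0.744 to 1.3 in NOD, 0.746 to 4 in NON and 0.804 to 2.4 in C57 mice. The high ratios were thus all in control mice, and their part in the strain differences was not tested.

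The study-named Tnfrsf14 probe set carried far less signal in NOD mice than in either control strain at both ages. At 4 weeks it read 127, 449, 328, 166 and 315 in the NOD mice, against 1980, 1730, 2398, 2836 and 3442 in the NON mice and 850, 1700, 965, 1616 and 1278 in the C57 mice. Every NOD mouse lay below every control mouse, and the NON and C57 mice did not overlap each other, with NON above. The means were 277 ± 131 in NOD, 2480 ± 684 in NON and 1280 ± 379 in C57 mice (SD, n = 5 each), so the NOD mean was 6.78-fold below the mean of the controls (log2 difference -2.73).

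At 2 weeks the NOD mice read 142, 263, 320, 208 and 251, against 1877, 3508, 501, 2425 and 3639 in the NON mice and 1691, 2305, 1698, 1440 and 1479 in the C57 mice. Again no NOD mouse reached a control mouse, and NON mouse 3, at 501, came nearest to them. The means were 237 ± 66.4, 2390 ± 1290 and 1720 ± 347 in NOD, NON and C57 mice (SD, n = 5 each), an 8.68-fold lower NOD mean (log2 difference -2.94). NON and C57 mice overlapped at this age.

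The 2 ages were not compared with each other in choosing this probe set, so its change with age was tested. The study lists it as low in NOD mice at both ages, however, which favours a small age change in NOD against the controls. The signal of the study-named probe set differed between 4 and 2 weeks by 0.13 ± 0.39 in NOD, 0.29 ± 0.39 in NON and -0.45 ± 0.39 in C57 mice on the log2 scale (± SE, n = 5 against 5), and limma called none of them (adjusted p = 0.96, 0.83 and 0.95). The age change in NOD differed from that of the controls by 0.21 ± 0.48 (limma, adjusted p = 0.98). This last test was not independent of the choice of the probe set, and no conclusion is drawn from it.

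Probe set 1452425_at, the only one annotated to Tnfrsf14, sat near the bottom of the scale. It reached a signal of 50 in 1 of the 30 mice, so it was left out of the main tests. At 4 weeks it read 20.6, 10.5, 23.7, 22.8 and 26 in NOD mice, against 13.9, 18.1, 7.1, 8.9 and 9.5 in NON mice and 14.7, 18.4, 11.3, 9 and 8.5 in C57 mice. The strains overlapped.

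At 2 weeks 1452425_at read 14.9, 29.5, 93.9, 39.8 and 25.6 in NOD mice, against 9, 5.2, 9.1, 10.3 and 11.9 in NON mice and 12.7, 4.8, 10.8, 9.8 and 6.2 in C57 mice. Every NOD mouse lay above every control mouse at this age, the opposite order to the study-named probe set. The NOD mean was 4.54-fold above the mean of the controls, at signals near the bottom of the scale. With no signal minimum, the F-test across strains did not call it at 4 or 2 weeks (limma, adjusted p = 0.43 and 0.058). The contrast of NOD with the controls at 2 weeks was 1.25 ± 0.26 (SE), also without a call (limma, adjusted p 0.05 after rounding). The study-named probe set was not tested for strain here, so its lack of a call carries no information. The study itself lists it among the transcripts significantly lower in NOD mice than in both control strains, at both ages. Probe set 1452425_at gave no called strain difference, but its signals lay near the bottom of the scale. These tests therefore do not decide whether HVEM mRNA differs between the strains.

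**Figure D1:**
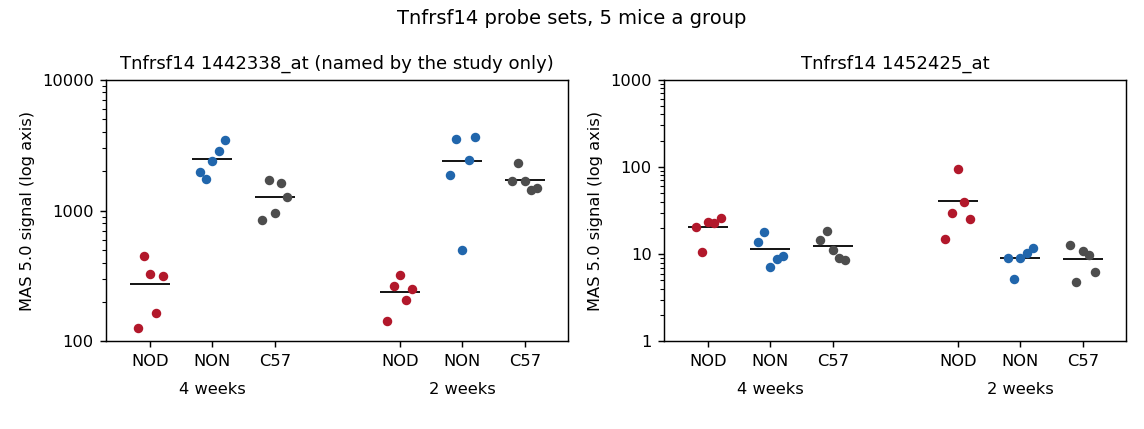
MAS 5.0 signal (log axis) of the 2 probe sets called Tnfrsf14 in each of 30 mice, by strain at 4 weeks and at 2 weeks; points are mice and bars are group means. On the study-named probe set the NOD mice lie between 127 and 449 at 4 weeks and between 142 and 320 at 2 weeks, below every NON and C57 mouse, whereas on 1452425_at nearly all mice lie under 50.

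The 5 probe sets whose levels across the 30 mice were most like those of the study-named probe set were 1417822_at (D17H6S56E-5, Pearson r = 0.91), 1421571_a_at (r = 0.90), 1454714_x_at (Phgdh, r = 0.88), 1416479_a_at (Tmem14c, r = 0.88) and 1456471_x_at (r = 0.88). Probe sets 1421571_a_at and 1456471_x_at are annotated to several genes and are not named. These correlations are a description across mice that share strain and age. All 5 had their lowest mean in NOD mice at both ages, which a choice by likeness to a probe set low in NOD mice favours. D17H6S56E-5 averaged 373 ± 81.3 in NOD, 2330 ± 243 in NON and 2410 ± 118 in C57 mice at 4 weeks (SD, n = 5 each). Phgdh, an enzyme of serine synthesis, averaged 155 ± 38.6 in NOD, 761 ± 173 in NON and 891 ± 164 in C57 mice at that age.

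The genes next to Tnfrsf14 in the RefSeq gene order were not called. Of the 3 nearest genes with a probe set on each side, 5 could be tested (Prxl2b, Ttc34, Hes5, Pank4 and Plch2), and limma called 0 of 5 for a strain difference at either age (1 and 2 at an unadjusted p under 0.05 at 4 and 2 weeks). Prxl2b averaged 258 ± 83.6 in NOD, 128 ± 45.5 in NON and 103 ± 76.2 in C57 mice at 4 weeks (SD, n = 5 each, F-test, limma, adjusted p = 0.29). Pank4, of the pantothenate kinase family, averaged 1480 ± 408, 1600 ± 337 and 1650 ± 281 in NOD, NON and C57 mice at 4 weeks, with overlapping values.

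Over the 9 other member probe sets tested, the F-test across the 3 strains called 0 at 4 weeks (5 at an unadjusted p under 0.05, and 0 also with unmoderated variances), where 1.51% of all probe sets were called. At 2 weeks it called 2 of 9, Btla 1455656_at and Cd160 1420066_s_at, where 1.66% of all were called. The contrast of NOD with the mean of the controls, which asks what sets the diabetes-prone strain apart, called 0 of 9 at 4 weeks (3 at an unadjusted p under 0.05; 0.804% of all probe sets called) and 0 of 9 at 2 weeks (0 at an unadjusted p under 0.05; 0.499% called). The median difference between NOD and the controls over the 9 was 0.02 at 4 weeks and 0.06 at 2 weeks on the log2 scale, beside 0.05 and 0.06 over all probe sets tested.

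Btla, the inhibitory receptor that HVEM engages on B and T cells, was highest in C57 mice at both ages. At 4 weeks 1455656_at read 6671, 9748, 4371, 5778 and 5669 in NOD mice, against 6569, 9768, 10055, 6604 and 10202 in NON mice and 10307, 11354, 14648, 14000 and 13888 in C57 mice. The lowest C57 mouse was just above the highest NON mouse, while NOD and NON mice overlapped. The F-test did not call this (limma, adjusted p = 0.081). The single contrast of NOD with C57, given here although the F-test was not passed, was -1.03 ± 0.23 (SE, limma, adjusted p = 0.045; 0.666% of all probe sets called lower), with the NOD mean 1.99-fold lower, and it was called in 7 of 24 alternative settings (adjusted p 0.016 to 0.2), being lost without any one of 12 of the 15 mice, NOD mouse 3 among them.

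At 2 weeks Btla read 7492, 8908, 4201, 5253 and 5561 in NOD mice, against 5371, 6206, 5255, 5547 and 2670 in NON mice and 10156, 11667, 12831, 12087 and 11502 in C57 mice. No NOD or NON mouse reached a C57 mouse. The F-test called this difference (limma, adjusted p = 0.03), and NON mice were 2.33-fold below C57 mice (log2 difference -1.27 ± 0.25 SE, limma, adjusted p = 0.018; 0.99% of all probe sets called lower). For NOD against C57 the difference was -0.94 ± 0.25 (adjusted p = 0.12), and for NOD against NON it was 0.33 ± 0.25 (adjusted p = 0.75).

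The call of the F-test for Btla at 2 weeks depended on the settings and on the mice included. It was called in 14 of 24 alternative settings (limma, adjusted p 0.0034 to 0.087). The call was lost with quantile normalization and with a replicate block. It was also lost without any one of the 5 C57 mice, without NON mouse 1 or 3 or without NOD mouse 4. The contrast of NON with C57 was called in 22 of 24 and was lost without C57 mouse 3 or 4 (adjusted p up to 0.055). A contrast added after these values had been seen set C57 against the mean of NOD and NON: it was 0.81 ± 0.20 at 4 weeks (limma, adjusted p = 0.075) and 1.10 ± 0.22 at 2 weeks (limma, adjusted p = 0.019; 0.87% of all probe sets called higher).

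The summed B cell markers, from cells that carry Btla, were 14700 to 26200 in NOD, 20900 to 25900 in NON and 23200 to 29500 in C57 mice at 4 weeks, and 17200 to 27700 in NOD, 9590 to 23200 in NON and 22600 to 29500 in C57 mice at 2 weeks. None of the 4 B cell markers tested was called for a strain difference at either age (2 and 0 at an unadjusted p under 0.05 at 4 and 2 weeks). These sums overlapped between all strains. Their means at 2 weeks had the order of Btla, with 21500 ± 4190 in NOD, 17600 ± 4950 in NON and 24800 ± 2800 in C57 mice (SD, n = 5 each). The T cell markers, from the other cells that carry Btla, had that order too. Their mean sums at 2 weeks were 3670 ± 1170 in NOD, 1670 ± 582 in NON and 5070 ± 1460 in C57 mice (SD, n = 5 each), with NOD and C57 mice overlapping. Of these markers, 3 of 6 were called lower in NON than in C57 mice (limma). The markers Cd8a and Cd8b1, 2 of 6, were called higher in C57 mice than in the mean of NOD and NON (limma). The part of B and T cell markers in the Btla difference was not tested. The probe sets most like Btla across the 30 mice were Trim21 (Pearson r = 0.91), Fcmr (r = 0.90) and Ttpal (r = 0.90), a description with strain and age shared.

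CD160, another partner of HVEM, carried mainly by NK cells and some T cells, had 4 probe sets, which did not behave alike. Cd160 1420066_s_at, whose suffix marks probes shared between transcripts, read 36.4, 131, 149, 153 and 95.1 in NOD mice at 4 weeks, against 230, 148, 106, 111 and 152 in NON mice and 200.1, 164, 190, 136 and 144 in C57 mice. The strains overlapped at that age (F-test, limma, adjusted p = 0.55). At 2 weeks it read 127, 60, 93.3, 107 and 68.5 in NOD mice, against 72.3, 42.7, 69.6, 21.7 and 15.2 in NON mice and 164, 166, 199, 156 and 106 in C57 mice.

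All 5 NON mice lay below all 5 C57 mice at 2 weeks, with NOD mice between and overlapping both. The F-test called the difference (limma, adjusted p = 0.025), and the NON mean was 3.57-fold below the C57 mean (log2 difference -1.76 ± 0.33 SE, limma, adjusted p = 0.012). NOD against NON was 1.01 ± 0.33 (adjusted p = 0.28) and NOD against C57 was -0.75 ± 0.33 (adjusted p = 0.39). The contrast of NON with C57 was called in 24 of 24 alternative settings (adjusted p 0.002 to 0.043), whereas the F-test was called in 17 of 24 (adjusted p 0.005 to 0.069) and was lost without NON mouse 4 or 5 or without any one of C57 mice 1, 2, 3 and 4. Of the 6 T cell markers, 3 were called lower in NON than in C57 mice at 2 weeks (6 at an unadjusted p under 0.05): Cd8a was 3.11-fold, Cd8b1 5.28-fold and Cd3d 3.18-fold lower (limma, adjusted p = 0.0046, 0.0063 and 0.034). Of the NK cell markers, 0 of 4 were called in the same contrast (1 at an unadjusted p under 0.05, lowest adjusted p = 0.33), with a median log2 difference of -0.24, and their sums were 666 to 1400 in NON and 864 to 1820 in C57 mice at 2 weeks. The part of T and NK cell markers in the Cd160 difference was not tested.

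The other Cd160 probe sets showed no called difference. Cd160 1420396_at averaged 251 ± 103 in NOD, 266 ± 74.4 in NON and 253 ± 58.5 in C57 mice at 4 weeks, and 213 ± 47.3, 229 ± 73.4 and 268 ± 59.6 in NOD, NON and C57 mice at 2 weeks (SD, n = 5 each, F-test, limma, adjusted p = 0.97 and 0.74). Its difference between NON and C57 at 2 weeks was -0.25 ± 0.25 (SE), against the -1.76 of 1420066_s_at. Cd160 1456847_at averaged 25.7 ± 17.2 in NOD, 101 ± 65.5 in NON and 65.5 ± 37.2 in C57 mice at 4 weeks (F-test, limma, adjusted p = 0.34), with 13 of the 30 mice at or above a signal of 50. At 2 weeks its means were 35.4 ± 22.6, 18.6 ± 8.54 and 70.9 ± 60 in NOD, NON and C57 mice (F-test, limma, adjusted p = 0.46). Its difference between NON and C57 at that age was -1.16 ± 0.50 (SE, limma, adjusted p = 0.32), in the direction of 1420066_s_at but with overlapping mice. Cd160 1420067_at reached 50 in 2 of 30 mice and was left out of the main tests.

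**Figure D2:**
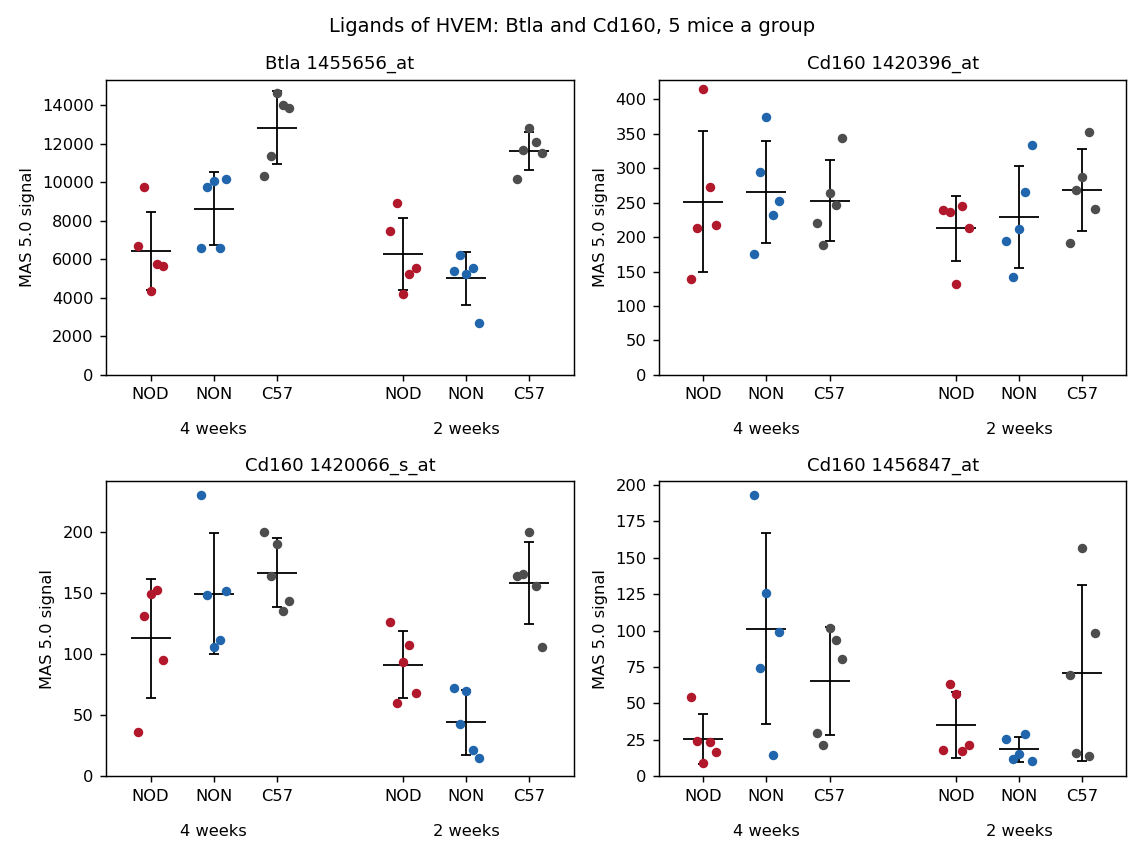
MAS 5.0 signal of Btla and of the 3 Cd160 probe sets tested in each of 30 mice, by strain at 4 weeks and at 2 weeks; points are mice, bars are means and error bars are 1 SD (n = 5). The C57 mice lie above all NOD and NON mice for Btla at both ages, and the NON mice of 2 weeks lie at 15.2 to 72.3 on Cd160 1420066_s_at, below all C57 mice.

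LIGHT (Tnfsf14), the TNF family ligand of HVEM and of the lymphotoxin-beta receptor, gave low signals on both of its probe sets. Tnfsf14 1450298_at read 51.8, 50.7, 37.5, 103 and 66.5 in NOD mice at 4 weeks, against 72.5, 13.2, 46.4, 67.6 and 41.4 in NON mice and 35, 8.7, 21.6, 18.3 and 34.4 in C57 mice. Every NOD mouse was above every C57 mouse, but the F-test did not call the difference (limma, adjusted p = 0.27; NOD against C57 1.11 ± 0.36, adjusted p = 0.19). At 2 weeks the means were 46.7 ± 13.2, 29.8 ± 18.2 and 36 ± 27.5 in NOD, NON and C57 mice (F-test, limma, adjusted p = 0.69), and the strains overlapped. Tnfsf14 1421588_at passed the signal minimum in only 5 of 30 mice, which came from 4 groups, and its group means lay between 12.6 and 33.

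Lymphotoxin-beta (Ltb 1419135_at) read 2043, 2962, 2978, 3322 and 2679 in NOD mice at 4 weeks, against 732, 1212, 2718, 1533 and 1858 in NON mice and 2476, 2936, 4069, 3098 and 5345 in C57 mice. Of the NON mice, 4 lay below every NOD and C57 mouse, and NON mouse 3 lay within their range. The F-test did not call this (limma, adjusted p = 0.13), and the NON mean was 2.23-fold below the C57 mean (log2 difference -1.22 ± 0.31 SE, limma, adjusted p = 0.11). Without NON mouse 3 of 4 weeks that contrast was called (limma, adjusted p = 0.042), the one alternative of 24 in which it was. NOD against NON was 0.90 ± 0.31 (adjusted p = 0.29).

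At 2 weeks Ltb read 2077, 1179, 1187, 3011 and 2741 in NOD mice, against 1064, 1373, 2078, 2475 and 364 in NON mice and 1400.0, 2674, 1998, 2399 and 2719 in C57 mice. The 3 strains overlapped (F-test, limma, adjusted p = 0.57). The low NON values at 4 weeks stood beside low T cell markers in the same mice, 4 of 6 being called lower in NON than in C57 mice (limma). Among them Cd3d was 2.04-fold and Cd8b1 3.69-fold lower (limma, adjusted p = 0.024 and 0.00051). Cd8b1 was low in NOD mice too, with 313 ± 112, against 279 ± 37 in NON and 1030 ± 198 in C57 mice (SD, n = 5 each), whereas Ltb was not. The part of T cell markers in the Ltb values was not tested. Most like Ltb across the 30 mice were Irf2bpl (r = 0.83), the unlisted probe set 1450461_at (r = 0.82) and Evl (r = 0.82).

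Lymphotoxin-alpha (Lta), encoded beside Ltb with Tnf between them, was not called for a strain difference at either age. Lta 1420353_at averaged 199 ± 27.7 in NOD, 177 ± 31.5 in NON and 222 ± 52.9 in C57 mice at 4 weeks, and 145 ± 15.8 in NOD, 92.2 ± 51.9 in NON and 128 ± 42 in C57 mice at 2 weeks (SD, n = 5 each, F-test, limma, adjusted p = 0.71 and 0.48). Lta was higher at 4 than at 2 weeks in the mean of each strain, as described with the ages. Most like it were Dguok (r = 0.77), Nabp1 (r = 0.75) and Cd4 (r = 0.75), Cd4 being one of the T cell markers.

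The lymphotoxin-beta receptor (Ltbr 1416435_at), which leukocytes of the myeloid lineage and stroma carry, averaged 259 ± 65.6 in NOD, 221 ± 42 in NON and 165 ± 47.5 in C57 mice at 4 weeks (SD, n = 5 each, F-test, limma, adjusted p = 0.36). NOD was 0.63 ± 0.23 above C57 on the log2 scale (limma, adjusted p = 0.25), with overlap between the strains. At 2 weeks the means were 226 ± 45.1, 236 ± 50 and 203 ± 57.7 in NOD, NON and C57 mice (F-test, limma, adjusted p = 0.85). The summed myeloid markers were 10600 to 17700 in NOD, 11500 to 22400 in NON and 8830 to 12000 in C57 mice at 4 weeks, with overlap between the strains, and their part in the Ltbr values was not tested.

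**Figure D3:**
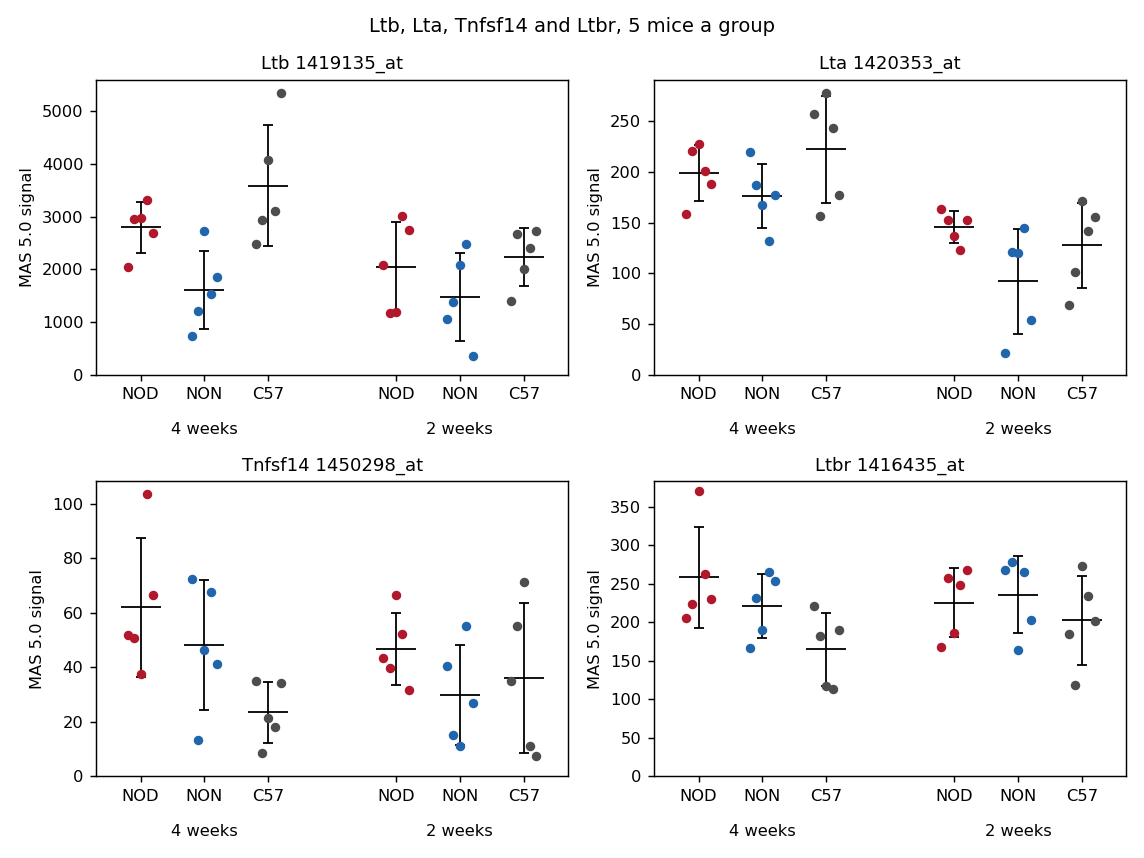
MAS 5.0 signal of Ltb, Lta, Tnfsf14 and Ltbr in each of 30 mice, by strain at 4 weeks and at 2 weeks; points are mice, bars are means and error bars are 1 SD (n = 5). NON mice hold the lowest Ltb values at 4 weeks (732 to 2718), and the NOD mice of 4 weeks lie above all C57 mice of that age on Tnfsf14 1450298_at.

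Between 4 and 2 weeks of age, the change was called for 1 of the 10 member probe sets tested, Cd160 1420066_s_at in NON mice. The counts were 0 of 10 in NOD (0 at an unadjusted p under 0.05; 0.146% of all probe sets called), 1 of 10 in NON (4 at an unadjusted p under 0.05; 1.46% called) and 0 of 10 in C57 mice (1 at an unadjusted p under 0.05; 0.46% called). In NON mice Cd160 1420066_s_at rose to a mean of 149 ± 49.8 at 4 weeks, against 44.3 ± 26.4 at 2 weeks (SD, n = 5 each), and the ages did not overlap. This was 3.37-fold (log2 difference 1.66 ± 0.33 SE, limma, adjusted p = 0.009). In NOD and C57 mice the same probe set changed by 0.19 ± 0.33 and 0.08 ± 0.33 (adjusted p = 0.92 and 1).

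The rise in NON was called in 37 of 39 alternative settings and was lost with unmoderated variances and with the 10 NON mice fitted alone. Its difference from the mean age change of NOD and C57, a contrast added after the values had been seen, was 1.52 ± 0.40 (limma, adjusted p = 0.34; 0.00261% of all probe sets called), so a change particular to NON was not shown. In the same NON mice 5 of 6 T cell markers and 1 of 4 NK cell markers, Ncr1, were called higher at 4 weeks. Cd4 rose by 2.73-fold and Ncr1 by 2.35-fold (limma, adjusted p = 0.014 and 0.021). The summed NK cell markers of NON mice were 1430 to 2200 at 4 weeks, against 666 to 1400 at 2 weeks. The median log2 age change of the T cell markers was 1.3 in NON, 0.73 in NOD and 0.62 in C57 mice. None of the 6 was called in NOD or C57 mice (5 and 3 at an unadjusted p under 0.05). No T or NK cell marker was called for an age change in NON against that of NOD and C57. The part of T and NK cell markers in the Cd160 change was not tested.

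Btla, Lta and Cd160 1456847_at were also higher at 4 weeks in NON mice, without a call. Btla averaged 8640 ± 1880 at 4 weeks, against 5010 ± 1360 at 2 weeks in NON mice, whose ages did not overlap (0.81 ± 0.24; limma, adjusted p = 0.08), and its change in NOD was 0.04 ± 0.24. Lta in NON was 1.07 ± 0.31 higher at 4 weeks on the log2 scale (limma, adjusted p = 0.077), beside 0.78 ± 0.31 in C57 and 0.42 ± 0.31 in NOD mice. Without NON mouse 2 of 2 weeks, the mouse with the highest Gapdh ratio, both were called, as 3 of 10 members then were. Cd160 1456847_at averaged 101 ± 65.5 at 4 weeks, against 18.6 ± 8.54 at 2 weeks in NON mice (1.72 ± 0.53; limma, adjusted p = 0.11). Tnfsf14 1421588_at and Ltbr were lower at 4 weeks in NON mice, without a call (-0.69 ± 0.52 and -0.08 ± 0.23). No member's age change in NOD was called as different from that in the controls (0 of 10, 0 at an unadjusted p under 0.05, where 0% of all probe sets were called and 6.2% had an unadjusted p under 0.05). The 10 include the study-named probe set, for which this test was not independent of its choice.

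**Figure D4:**
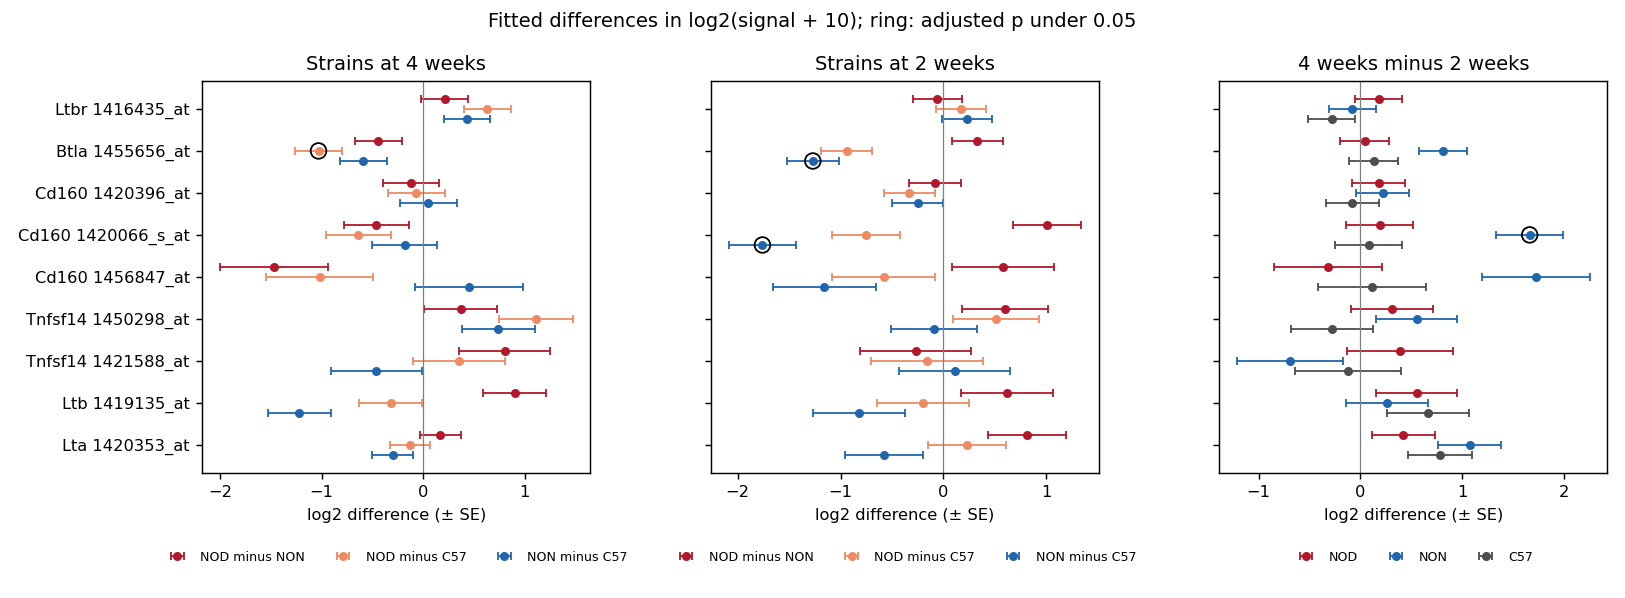
Fitted differences in log2(signal + 10) of the 9 annotated member probe sets tested, with SE bars, for the strain contrasts at 4 weeks, at 2 weeks, and for 4 weeks minus 2 weeks within each strain (15, 15 and 30 mice in the fits). Rings mark an adjusted p under 0.05: Btla for NOD minus C57 at 4 weeks (-1.03, where the F-test was not passed), Btla and Cd160 1420066_s_at for NON minus C57 at 2 weeks, and Cd160 1420066_s_at for age in NON (1.66).

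Genes that act with the axis are set beside the 1.51% and 1.66% of all probe sets that the strain F-test called at 4 and 2 weeks. Of 8 genes that carry signals of HVEM or BTLA, 7 could be tested, and the F-test called 0 at 4 weeks (1 at an unadjusted p under 0.05) and 1 at 2 weeks, Traf5, an adaptor of HVEM. Traf5 1448861_at averaged 265 ± 32.4 in NOD, 205 ± 41.9 in NON and 376 ± 16.2 in C57 mice at 2 weeks (SD, n = 5 each, F-test, limma, adjusted p = 0.036), and the NON mean was 1.83-fold below the C57 mean (limma, adjusted p = 0.018). The C57 mice, at 362 to 397, lay above all NOD mice (215 to 298) and all NON mice (171 to 256). The means had the order seen for Btla and for the summed B and T cell markers in the same mice, and the part of those markers in the Traf5 difference was not tested. At 4 weeks Traf5 averaged 281 ± 61.8, 333 ± 83 and 435 ± 108 in NOD, NON and C57 mice (F-test, limma, adjusted p = 0.44).

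Of 11 genes that link the lymphotoxin-beta receptor to NF-kB, 9 could be tested, and the strain F-test called 0 at either age (1 and 2 at an unadjusted p under 0.05 at 4 and 2 weeks). Birc3, an inhibitor of apoptosis in the TRAF complex, rose with age in NON mice, to 1590 ± 316 at 4 weeks, against 832 ± 420 at 2 weeks (1.91-fold; limma, adjusted p = 0.03). Of 10 genes induced through that receptor in lymphoid tissue, among them Cxcl13 and Vcam1, 5 could be tested and 0 were called for strain (1 and 0 at an unadjusted p under 0.05). Their median difference between NOD and the controls was 0.45 at 4 weeks and 0.11 at 2 weeks, beside 0.05 and 0.06 over all probe sets. In the same contrast at 4 weeks the median was 0.39 for the stromal and 0.48 for the dendritic cell markers (0 of 4 called in each, 2 of 4 in each at an unadjusted p under 0.05), and their part in the values of the induced genes was not tested.

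Of 9 related TNF family ligands, 8 could be tested and 0 were called for strain at either age (0 and 0 at an unadjusted p under 0.05). Fasl, the death ligand of cytotoxic cells, rose with age in NON mice to 135 ± 37.6 at 4 weeks, against 60.8 ± 15.5 at 2 weeks (2.22-fold; limma, adjusted p = 0.048). Of 10 related receptors, 9 could be tested and 0 were called for strain (4 and 2 at an unadjusted p under 0.05 at 4 and 2 weeks). Cd27, a costimulatory receptor of lymphocytes, rose with age in NON mice to 189 ± 54.4 at 4 weeks, against 88.7 ± 35.1 at 2 weeks (2.13-fold; limma, adjusted p = 0.033). Birc3, Fasl and Cd27 were named after their values had been seen. Each was the only gene of its list called for age in NON mice (1 of 9, 1 of 8 and 1 of 9), where 1.46% of all probe sets were called. At an unadjusted p under 0.05 there were 5, 1 and 4. No gene of these lists was called for an age change in NON against that of NOD and C57 (limma, lowest adjusted p = 0.4, 0.44 and 0.5). The same NON mice showed the rise of T cell markers given above, and 1 of 4 B cell markers also rose (limma, adjusted p = 0.0011). No B or T cell marker was called for an age change in NON against that of NOD and C57. The part of these B and T cell markers in the changes of Birc3, Fasl and Cd27 was not tested.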

How the data were processed

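Spleen leukocyte RNA of 30 mice (6 groups of 5) was hybridised to MOE430A and MOE430B arrays, 60 arrays in all. The deposited values are MAS 5.0 signal intensity per probe set, which the authors scaled globally on each array; the methods name a target of 100, while the 2% trimmed mean of every deposited column was 250. The numbers of arrays limit the precision. The 2 arrays of a mouse were joined; of 164 probe sets on both, controls were dropped and the others taken from MOE430A, which left 45037. The annotation gives 1 gene for 34945 probe sets, several for 932 and none for 9160. Signals of 50 or more in at least 5 mice were required (38293 probe sets), and log2(signal + 10) was tested with limma 3.58.1 in R 4.3.3: an F-test across strains at each age (15 mice), contrasts from that fit, and age changes and their differences from all 30 mice in 6 groups, with Benjamini-Hochberg adjustment. Scripts were tested on simulated data.

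Named were all member probe sets, list genes called in a strain F-test, the 5 or 3 probe sets most correlated with a member and the neighbours of Tnfrsf14; a gene in a list or among the neighbours is represented by its brightest probe set. Members, lists and contrasts were chosen with earlier results of these data known. Alternatives were other pseudocounts, filters, normalization and fits, and leaving out each mouse. No 2 mice had identical values (highest correlation 0.905). Nothing in the labels says that mice of a group came from separate litters, so p-values measure only the spread between these mice.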

Additional observations from a re-analysis of the deposited data

Results flagged for a closer look

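In 72 groups of 5 mice (12 probe sets by 6 groups), 3 held a mouse far from the other mice of its group by Dixon's test; chance gives about 1 in 20 groups. Tnfrsf14 1452425_at was 10.5 in NOD mouse 2 of 4 weeks, against 20.6 to 26 in the other NOD mice of that age. Btla 1455656_at was 2670 in NON mouse 5 of 2 weeks, against 5255 to 6206 in the other NON mice of that age. Without that mouse the difference between NON and C57 at 2 weeks was still called, and that between NOD and C57 was called too. Cd160 1420396_at was 131 in NOD mouse 3 of 2 weeks, against 213 to 245 in the other NOD mice of that age.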

How the results depend on the processing

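No result turned direction with a call under any alternative. For the study-named Tnfrsf14 probe set, the log2 difference between NOD and the controls kept its direction and moved by less than the spread between replicates in 19 of 19 alternatives at each age; leaving out single mice gave -2.93 to -2.50 at 4 weeks and -3.19 to -2.78 at 2 weeks. The count of 9 members called for strain at 4 weeks was 1 in place of 0 with a pseudocount of 50 and with all 30 mice in the fit, and 0 to 1 on leaving out single mice, as was the count for NOD against the controls at 4 weeks (Btla without NOD mouse 2). The count for strain at 2 weeks was 1 in place of 2 with quantile normalization, with a replicate block and without NOD mouse 3 of 4 weeks and NON mouse 5 of 2 weeks together (an alternative added after seeing the data), and 0 to 2 on leaving out single mice. The count for age in NON was 2 with quantile normalization, 0 with unmoderated variances, 0 with the 10 NON mice alone, and 1 to 3 on leaving out single mice. The other counts stayed at 0. Over all probe sets, the calls for strain at 4 weeks were 960 with all 30 mice and 367 with the replicate block, against 578; the calls for age in NON were 75 with unmoderated variances, 23 with 10 mice and 159 to 909 on leaving out single mice, against 560; on leaving out single mice, those for age in NOD were 12 to 98, against 56, those for age in C57 74 to 217, against 176, those for NOD against the controls at 4 weeks 164 to 450, against 308, and those for strain at 4 weeks 381 to 624, against 578. The correlations gave no clear pairing of mice by replicate number: same-numbered mice correlated at -0.15 to 0.19, and 0 of 15 pairs of groups had every correlation over 0.1. In a pair of groups, 0 to 4 of 5 mice correlated best with their own number. It was 4 for NOD mice of 4 weeks with NOD and with NON mice of 2 weeks, so some structure by number may remain. Where not stated, the cause was not tested. Signals near 50 (both Tnfsf14 probe sets, Cd160 1456847_at) limit what these members can show.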
